A study of Homo sapiens with 4 samples.

Results

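The BCL2 family sets the threshold for mitochondrial apoptosis, and 10 of its genes were examined in Hs746T cells after suppression of the receptor tyrosine kinase MET. The genes were 3 pro-survival members (BCL2, BCL2L1 and MCL1), 5 BH3-only members (BCL2L11, BBC3, PMAIP1, BMF and BID) and 2 effectors (BAX and BAK1). They were set by name, but with earlier results of these data known. Every non-control probe that carried one of them was used, which gave 16 of the 34127 probes and 10 of the 19740 genes that could be named on the array. Of these probes, 4 belonged to pro-survival genes, 9 to BH3-only genes and 3 to effectors, and 14 of the 16 gave a value well above background on all 4 arrays.

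BAX and BAK1, once activated, oligomerize in the outer mitochondrial membrane and release cytochrome c, which starts the caspase cascade. BCL2, BCL-XL (the product of BCL2L1) and MCL1 hold them and their activators in check. The BH3-only proteins, among them BIM (BCL2L11), PUMA (BBC3), NOXA (PMAIP1), BMF and BID, occupy the groove of the pro-survival proteins or activate the effectors directly, and in cancers driven by a receptor tyrosine kinase the balance between the classes is known to bear on the response to kinase inhibitors.

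Hs746T is an established gastric carcinoma line with a mutated and amplified MET gene, so that all 4 conditions share these alleles. Cells received the solvent DMSO, the small-molecule MET inhibitor PHA665752, a control siRNA (sc siRNA) or MET siRNA, the transfected cells being collected 48 h after transfection, and RNA of each condition was labelled in 1 colour and hybridised to 1 Agilent human 44K V2 array. How much PHA665752 the array culture received, and for how long, was not given in the sources used here. The inhibitor array was set against DMSO and the MET siRNA array against sc siRNA, and sc siRNA against DMSO served as the background difference between both kinds of control culture. That last pair shares the DMSO array with the inhibitor pair and the sc siRNA array with the siRNA pair.

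With 1 array per condition no test and no error between cultures could be had. Values are therefore given as processed signals and as log2 ratios. The signals are background-subtracted intensities on a linear scale before any scaling between arrays, and the ratios were taken after setting each array to its 75th percentile, which was 990.1 on the DMSO array and 830.8 to 858.2 on the others. Throughout, a gene is said to have risen or fallen only where its ratio passed 2-fold. The noise between spots of the same probe on an array corresponded to 0.0768 for a log2 ratio, and the error that the scanner software attached to the ratios of the probes standing for the members lay between 0.204 and 0.297. Neither covers the spread between cultures, for which the only guide was the robust SD of 0.296 over all sc siRNA to DMSO ratios. Those cultures also differ by transfection, so this value is a rough stand-in and not a spread between like cultures. A lower signal in a bulk culture cannot be told apart from fewer cells carrying the RNA.

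MET itself gave signals of 221451.5 in DMSO, 100491.9 under PHA665752, 190009.5 under sc siRNA and 77853.5 under MET siRNA. Its log2 ratio was -1.33 in the siRNA pair, which is the direction the label states, and -0.93 in the inhibitor pair. Probes well above background made up 67.4% to 68.2% of the first 3 arrays and 61.1% of the MET siRNA array, on which 5.58% of the spots also carried outlier marks against 1.69% to 2.21% elsewhere. Of 7 epithelial markers 6 were well above background on all arrays, CDH1 being near background with signals of 10.4 to 33.0. Of 5 mesenchymal markers CDH2, FN1, SNAI2 and ZEB1 were well above background on all arrays, and VIM had no usable spot on either siRNA array. FN1 rose with PHA665752, from 1061.5 to 3563.5 (log2 ratio 1.96), and had a ratio of 0.48 with MET siRNA. Of the immune markers, PTPRC (22.7 to 37.8) and CD14 (113.2 to 140.1) were well above background on all arrays and CD3E on none. All 3 endothelial markers were above background, and in the inhibitor pair PECAM1 had a log2 ratio of -2.39 and VWF one of 2.77, in opposite directions, while the summed signal of the 3 ran from 552.8 to 1965.4. Of the 3 muscle markers DES (287.5 to 310.6) was well above background on all 4 arrays, MYH11 (18.0 to 34.4) on 3 and MYOD1 on none. Any part of other cell types in the values below was not tested.

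With PHA665752, BH3-only and pro-survival genes passed 2-fold in opposite directions. BMF and BBC3 rose, BCL2 and BCL2L1 fell, and the remaining 6 members stayed within 2-fold. Thus 4 of 10 members passed 2-fold, against 21.1% of all 14322 genes with a ratio in this pair, so that the inhibitor array differed widely from its control far beyond this family. The 2 that rose were both BH3-only genes (13.1% of all genes rose) and the 2 that fell were both pro-survival genes (8.04% of all genes fell). In the siRNA pair BMF alone rose, 1 of 10 members against 2.73% of 13647 genes past 2-fold in either direction (2.04% upward and 0.696% downward). Between the control arrays none of the 10 passed 2-fold, against 4.05% of 14274 genes (2.89% upward and 1.16% downward).

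**Figure D1:**
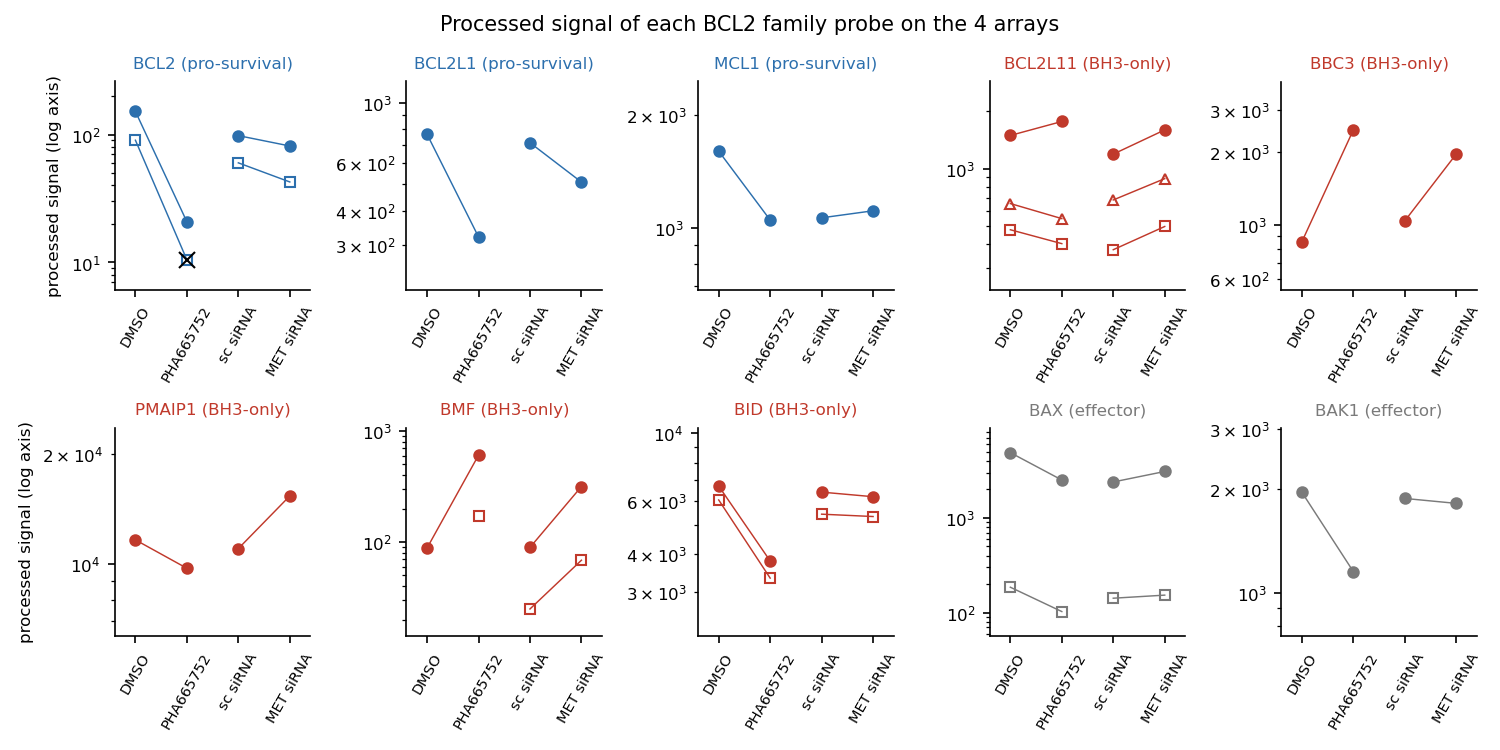
Processed signal before scaling (log axis, arbitrary units) of every probe of the 10 members on each of the 4 arrays, 1 array per condition and so without error bars. Filled circles are the probe that stands for its gene, open symbols are further probes, lines join the arrays of a pair, a cross marks a value not well above background and colours mark the 3 roles. BMF was at 88.2 and 89.3 on the control arrays and at 605.3 and 316.1 after MET suppression, while BCL2 dropped from 151.6 to 20.8 with PHA665752.

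BMF encodes a BH3-only protein tethered to the cytoskeleton in healthy cells. Its brighter probe (A_23_P379649, NM_001003940) gave signals of 88.2 in DMSO, 605.3 under PHA665752, 89.3 under sc siRNA and 316.1 under MET siRNA. The control arrays thus lay close together, and both arrays with MET suppressed lay well above them. The log2 ratio was 2.99 with PHA665752 (7.96-fold), 1.78 with MET siRNA (3.43-fold) and 0.27 between the controls. BMF ranked 58th from the top of 14322 genes in the inhibitor pair and 82nd of 13647 in the siRNA pair. When genes were ordered by the lower of their 2 ratios, BMF stood 17th from the top of 13440 genes with both.

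A second BMF probe (A_33_P3346801), against the same transcript record, ran the same way at dimmer signals, 171.0 under PHA665752, then 24.9 for the control siRNA against 68.5 for MET siRNA. Its siRNA log2 ratio was 1.42 (2.67-fold). Its DMSO spot carried an outlier mark, so no inhibitor ratio is given for it in the main values. With the mark ignored the spot read 29.6 and the inhibitor log2 ratio was 2.74. Both probes of BMF therefore rose in the siRNA pair, and in the inhibitor pair the second did so only with its mark ignored.

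BBC3, the gene of PUMA and a known target of FOXO factors, was represented by 1 probe (A_23_P382775, NM_014417). Its signals were 855.4 in DMSO, 2481.5 under PHA665752, 1042.8 under sc siRNA and 1970.9 under MET siRNA. Both arrays with MET suppressed lay above both control arrays. The log2 ratio was 1.75 with PHA665752 (3.37-fold) and 0.87 with MET siRNA (1.83-fold), the latter short of 2-fold. The sc siRNA array was itself above DMSO by 0.54, which placed BBC3 in the top 7.92% of genes in the control pair, compared with the top 2.65% in the siRNA pair and the top 4.08% in the inhibitor pair.

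BCL2L11, which encodes BIM, a BH3-only protein that binds every pro-survival member, had 3 probes. The brightest (A_24_P122921, NM_138621) gave 1490.7 in DMSO, 1764.1 under PHA665752, 1189.7 under sc siRNA and 1593.9 under MET siRNA. Its log2 ratio was 0.46 in the inhibitor pair and 0.38 in the siRNA pair. The other 2 (A_33_P3251932 and A_33_P3398526, both on NM_207002) had siRNA ratios of 0.36 and 0.32, close to the first, but inhibitor ratios of -0.03 and -0.05. The 3 probes thus lay close together in the siRNA pair and parted in the inhibitor pair, where the sign depends on the probe chosen. Between the controls their ratios were -0.07, -0.09 and 0.32, the last as large as that probe's siRNA ratio.

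PMAIP1 encodes NOXA, which binds MCL1 preferentially. Its probe (A_33_P3619171, NM_021127) gave 11653.2 in DMSO, 9743.6 under PHA665752, 11030.0 under sc siRNA and 15374.3 under MET siRNA, the last being the highest of the 4. The log2 ratio was 0.43 in the siRNA pair (1.35-fold) and -0.04 in the inhibitor pair, where quantile normalization turned it to 0.09.

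BID, whose product is cleaved by caspase-8 and links death receptors to mitochondria, had a lower signal with the inhibitor, unlike BMF and BBC3, but within 2-fold. The brighter of its probes (A_33_P3227041, NM_197966) gave 6694.1 in DMSO, 3795.4 under PHA665752, 6395.0 under sc siRNA and 6176.9 under MET siRNA. The log2 ratio was -0.60 with PHA665752, and the second probe (A_24_P187948) gave -0.64. In the siRNA pair both probes were near 0, at -0.10 and -0.07. The inhibitor array was thus the low one for both probes, with the other 3 arrays close together.

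BCL2, the founding pro-survival gene, had 2 probes and low signals throughout. The brighter (A_33_P3355185, NM_000657) gave 151.6 in DMSO, 20.8 under PHA665752, 98.1 under sc siRNA and 81.4 under MET siRNA. The inhibitor value lay not far above 12.3, the lowest signal called well above background on that array, whereas the other 3 values were clear of it. The log2 ratio was -2.65 with PHA665752 (6.29-fold lower), which ranked 105th from the bottom of 14322 genes. It was -0.32 with MET siRNA and -0.38 between the controls, so that for this probe the siRNA ratio was no larger than the difference between the control arrays.

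The second BCL2 probe (A_23_P352266, NM_000633) was spotted 10 times. Its spots ranged from 81.9 to 102.4 with DMSO, from 7.2 to 18.9 with PHA665752, from 51.8 to 74.0 with sc siRNA and from 30.4 to 48.8 with MET siRNA. Before scaling, no spot of one array overlapped with the spots of another, and the PHA665752 spots were the lowest. The DMSO array was the brighter overall (75th percentile 990.1 against 830.8 with sc siRNA), so the gap between the control arrays is in part one of scale. On the PHA665752 array only 2 of the 10 spots were well above background, so the drop is a bound of at least 6.31-fold. Its siRNA ratio was -0.54 and its ratio between the controls -0.34, so that here, unlike for the brighter probe, the siRNA ratio was the larger in size. Background correction bore strongly on this gene, since the normexp method with an offset of 50 gave -1.04 for the brighter probe with PHA665752 and -0.06 between the controls.

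BCL2L1, the gene of BCL-XL, had 1 probe (A_23_P210886, NM_138578), also spotted 10 times. The mean signals were 766.5 in DMSO, 320.0 under PHA665752, 713.3 under sc siRNA and 510.2 under MET siRNA. Spots ran from 742.0 to 795.4, from 308.1 to 336.2, from 684.0 to 764.7 and, for the 8 usable spots with MET siRNA, from 494.8 to 529.7. Both arrays with MET suppressed lay below both control arrays, with no overlap of spots before scaling. The log2 ratio was -1.05 with PHA665752 (2.07-fold lower), barely past 2-fold and -0.92 under normexp. With MET siRNA it was -0.53 (1.44-fold lower), in the lowest 3.83% of genes, against 0.15 between the controls.

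MCL1 encodes a short-lived pro-survival protein that is controlled largely by degradation. Its probe (A_24_P336759, NM_021960) gave 1599.7 in DMSO, 1049.1 under PHA665752, 1063.5 under sc siRNA and 1110.3 under MET siRNA. DMSO was the high array, and the other 3 lay close together. The log2 ratio with PHA665752 was -0.39, little different from the -0.34 between the controls. With MET siRNA it was 0.02, and it changed sign under the 50th percentile (-0.02) and under scaling to the probes well above background (-0.29).

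BAX (A_23_P208706, NM_138764) gave mean signals over its spots of 4877.0 in DMSO, 2507.9 under PHA665752, 2390.9 under sc siRNA and 3085.0 under MET siRNA. As for MCL1, DMSO was the high array. The log2 ratio of -0.75 with PHA665752 was matched by -0.78 between the controls, which put BAX in the lowest 2.17% of genes of the control pair, and the siRNA ratio was 0.32. A second, dimmer BAX probe (A_33_P3341144, NM_004324) gave -0.64, -0.13 and 0.06 in the same order, so that the probes were alike with PHA665752 and unlike between the controls.

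BAK1 (A_23_P145357, NM_001188) gave 1956.2 in DMSO, 1149.5 under PHA665752, 1879.0 under sc siRNA and 1817.8 under MET siRNA. The inhibitor array was the low one. The log2 ratios were -0.55, -0.09 and, between the controls, 0.19. Neither effector rose in either pair.

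**Figure D2:**
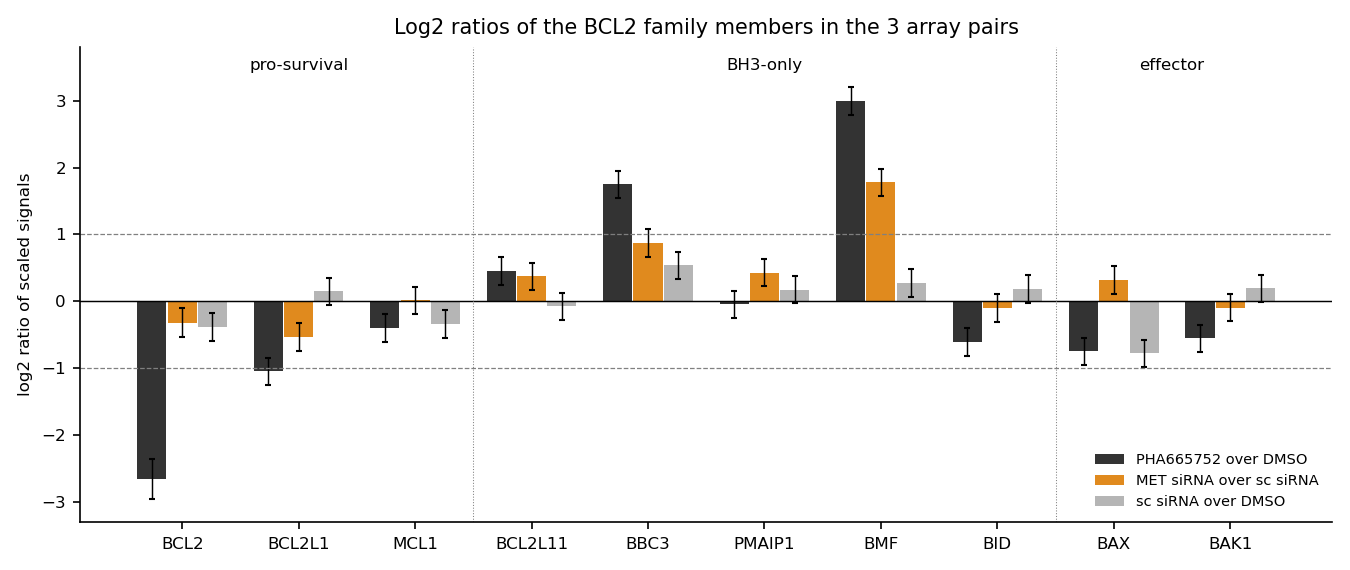
Log2 ratio (vertical axis) of the probe standing for each member in the 3 array pairs, with dashed lines at 2-fold. Bars start at 0, and error bars are the scanner software's error of the ratio, which does not cover differences between cultures. In the inhibitor pair BMF (2.99) and BBC3 (1.75) lie on the far side from BCL2 (-2.65) and BCL2L1 (-1.05), and in the siRNA pair BMF (1.78) alone lies past 2-fold.

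Set side by side by role, the median log2 ratio in the inhibitor pair was 0.46 over the 5 BH3-only members and -1.05 over the 3 pro-survival members, a difference of 1.5. Genes of either class outside the 10 members, given further below, did not enter these medians. The effectors had -0.65 and all genes 0.07. In the siRNA pair the medians were 0.43 for BH3-only genes, -0.32 for pro-survival genes, 0.11 for effectors and -0.02 for all genes, a difference between the BH3-only and pro-survival classes of 0.75. A difference of the same sign, 0.52, was also present between sc siRNA and DMSO, where neither culture had MET suppressed.

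Taking each BH3-only gene against each pro-survival gene, the BH3-only gene had the higher ratio in 14 of 15 combinations with PHA665752, in 14 with MET siRNA and also in 14 between the controls. The sign alone therefore did not set the MET pairs apart from the control pair. The largest difference was 5.65 with PHA665752 (BMF minus BCL2), 2.31 with MET siRNA (BMF minus BCL2L1) and 0.91 between the controls (BBC3 minus BCL2). Each rests on a single extreme combination, which held BMF in both MET pairs. The differences of medians with MET siRNA (0.75) and between the controls (0.52) lay closer together, and were 0.47 and 0.27 under normexp. The single exception to the sign was BID minus MCL1 in both MET pairs (-0.21 and -0.11) and BCL2L11 minus BCL2L1 in the control pair (-0.22). The difference in the inhibitor pair also depended on the probe, and was 1.02 when the median over all probes of a gene was used, because the median probe of BCL2L11 was at -0.03.

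Gene by gene, 7 of 10 members had ratios of the same sign with PHA665752 and with MET siRNA, in pairs that share no array, namely BCL2, BCL2L1, BCL2L11, BBC3, BMF, BID and BAK1. This share is close to the 69.6% of all 13440 genes with both ratios. The sign of BCL2L11 in the inhibitor pair depended on the probe, and BID and BAK1 were near 0 in the siRNA pair. When genes were ordered by the higher of their ratios in both pairs, BCL2L1 (-0.53) stood 280th and BCL2 (-0.32) 975th from the bottom of the 13440. Ordered by the lower of both, BBC3 (0.87) stood 195th from the top.

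**Figure D3:**
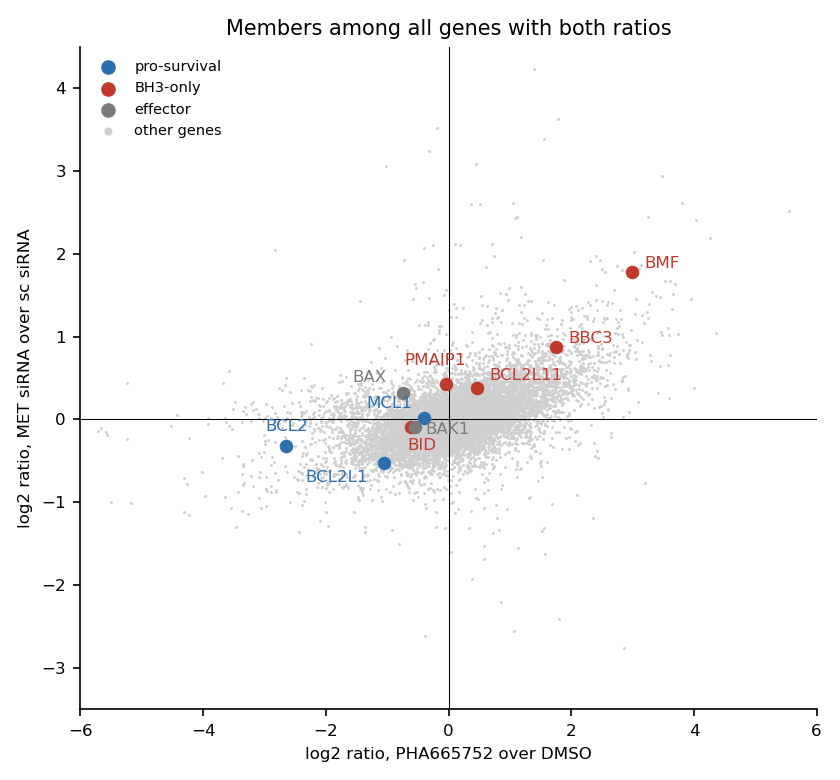
Log2 ratio with MET siRNA (vertical axis) against log2 ratio with PHA665752 (horizontal axis) for all genes with both ratios (grey, bounds at their value) and the 10 members (coloured by role). BMF lies at the upper right edge of the cloud, BBC3 nearer to its bulk, and BCL2 far to the left at an siRNA ratio of -0.32.

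Upstream sequence is shown for a BH3-only gene that rose (BMF), the BH3-only gene with discordant probes (BCL2L11) and a pro-survival gene with lower ratios in both MET pairs (BCL2L1). RefSeq promoter windows of GRCh38.p14 were matched by symbol for 9 members with 15 windows, MCL1 not being among them, and the 250 bases before each start were searched on both strands for 6 short motifs. These were TGTTTAC for FOXO factors, TGACGT for ATF factors, TGACTCA for AP-1, CACGTG for MYC and related E-box factors, TTTCGCGC or TTTGGCGC for E2F and GGGCGG for SP and KLF factors. Among 35116 windows of this length they occurred in 2.98%, 7.1%, 4.2%, 6.34%, 0.968% and 42.6%, in that order. Each window below lies outside the annotated span of its gene, and capitals mark motif matches.
BMF, outer start, chr15:40108880-40109129, minus strand: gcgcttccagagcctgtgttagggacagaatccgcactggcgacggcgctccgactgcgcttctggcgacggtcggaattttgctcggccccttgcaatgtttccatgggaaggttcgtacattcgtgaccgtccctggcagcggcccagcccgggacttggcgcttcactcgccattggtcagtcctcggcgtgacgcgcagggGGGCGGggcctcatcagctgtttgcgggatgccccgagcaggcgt
BCL2L11, chr2:111120664-111120913, plus strand: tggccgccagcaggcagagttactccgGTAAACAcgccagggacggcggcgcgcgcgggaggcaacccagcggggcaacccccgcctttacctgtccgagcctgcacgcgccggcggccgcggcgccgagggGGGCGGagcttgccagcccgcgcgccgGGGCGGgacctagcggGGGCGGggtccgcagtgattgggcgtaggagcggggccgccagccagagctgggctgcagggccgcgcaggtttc
BCL2L1, outer start, chr20:31723964-31724213, minus strand: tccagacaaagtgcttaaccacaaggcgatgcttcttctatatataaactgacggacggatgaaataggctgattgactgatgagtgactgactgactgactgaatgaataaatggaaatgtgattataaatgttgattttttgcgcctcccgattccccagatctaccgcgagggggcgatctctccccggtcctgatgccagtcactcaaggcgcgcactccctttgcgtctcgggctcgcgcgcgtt

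The BMF window held 1 SP/KLF match, 45 bases before the start, and its inner window held no match. The BCL2L11 window held 1 FOXO match on the opposite strand, 223 bases before the start, and 3 SP/KLF matches. The BCL2L1 window printed here held none of the 6 motifs. The BBC3 window, which overlaps the annotated gene and is not printed, held an AP-1 match 113 bases and an E-box 232 bases before its start. The PMAIP1 window held 1 ATF match and 4 SP/KLF matches, and the BAX window 4 E-boxes and 1 SP/KLF match. The matches are descriptions of letters, and binding was not measured.

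Transcription factors and other regulators known to act on expression of BH3-only genes formed a list of 19, of which 16 had an inhibitor ratio with a median of 0.04, and 17 had an siRNA ratio with a median of 0.12. With PHA665752, 3 of the 16 rose and 1 fell, a share past 2-fold near the 21.1% of all genes. FOXO1 (2.29) and FOXO4 (1.91), forkhead factors restrained by AKT, and ATF3 (3.61), a stress-induced factor, rose, while E2F1 (-3.52), a cell cycle factor, fell. With MET siRNA, 2 of the 17 rose, against 2.04% of all genes, and none fell. These were ATF3 (1.67) and TRIB3 (1.09), a pseudokinase of the stress response. Between the controls 3 of 17 passed 2-fold, against 4.05% of all genes. DDIT3 (1.34), ATF3 (1.15) and TRIB3 (1.25) were already higher with sc siRNA there, and the list's median was 0.27.

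The other BCL2-like genes formed a list of 18, and 12 had a ratio in each MET pair, with medians of -0.11 and -0.05. BCL2A1, a pro-survival relative, fell with PHA665752 from a signal of 251.7 to 17.5 (log2 ratio -3.63). The inhibitor value lay not far above 12.3, the lowest signal called well above background on that array, so the size of the drop is uncertain. The BCL2A1 spot on the MET siRNA array carried an outlier mark, so no siRNA ratio is given. BNIP3, a mitochondrial protein of hypoxia and mitophagy, fell by 1.36 on the log2 scale. Thus 2 of 12 passed 2-fold with PHA665752, against 21.1% of all genes. No gene of the list passed 2-fold with MET siRNA or between the controls, where 2.73% and 4.05% of all genes did. BCL2L2, the gene of BCL-W, had an inhibitor ratio of -0.20 and an siRNA ratio of -0.17. BAD, a BH3-only gene whose product is controlled by phosphorylation, had -0.01 and 0.25. BIK, a further BH3-only gene with dim signals of 30.6 to 35.7, had -0.01 and 0.01. HRK, also BH3-only, gave only an inhibitor bound of at least 0.97 upward and no siRNA ratio.

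All 24 genes of a list of the mitochondrial apoptosis machinery had a ratio, the median being -0.14 in the inhibitor pair and -0.15 in the siRNA pair. With PHA665752, 4 of the 24 fell, against 8.04% of all genes, and with 1 rise 5 passed 2-fold, a share near the 21.1% of all genes. Those that fell were cytochrome c (CYCS, -1.41), the initiator caspase CASP2 (-1.04), survivin (BIRC5, -1.77) and the outer membrane channel VDAC1 (-1.03). BIRC7, an inhibitor of apoptosis protein near background, gave only bounds on the log2 scale, at least 1.53 upward with PHA665752, at least 1.35 downward with MET siRNA and at least 2.07 upward between the controls. BIRC3, a relative of it, was higher with sc siRNA than with DMSO (3.09), with an siRNA ratio of 0.46. APAF1, the scaffold that cytochrome c activates, had 0.32 and 0.50, and CASP9, the caspase it recruits, 0.19 and 0.08.

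The last list held 18 genes, most of which act on the turnover of BIM and MCL1 proteins, with medians of -0.18 with PHA665752 and -0.02 with MET siRNA. It also held the dynein light chains DYNLL1 and DYNLL2, which are not turnover factors. Of the 18, 1 passed 2-fold with PHA665752, a smaller share than the 21.1% of all genes. This was USP9X, a deubiquitinase that stabilises MCL1, which rose (1.31). With MET siRNA none of the 18 passed 2-fold, against 2.73% of all genes. Between the controls RPS6KA2 fell (-1.09), 1 of 18 past 2-fold against 4.05% of all genes. Protein levels were not measured on these arrays.

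**Figure D4:**
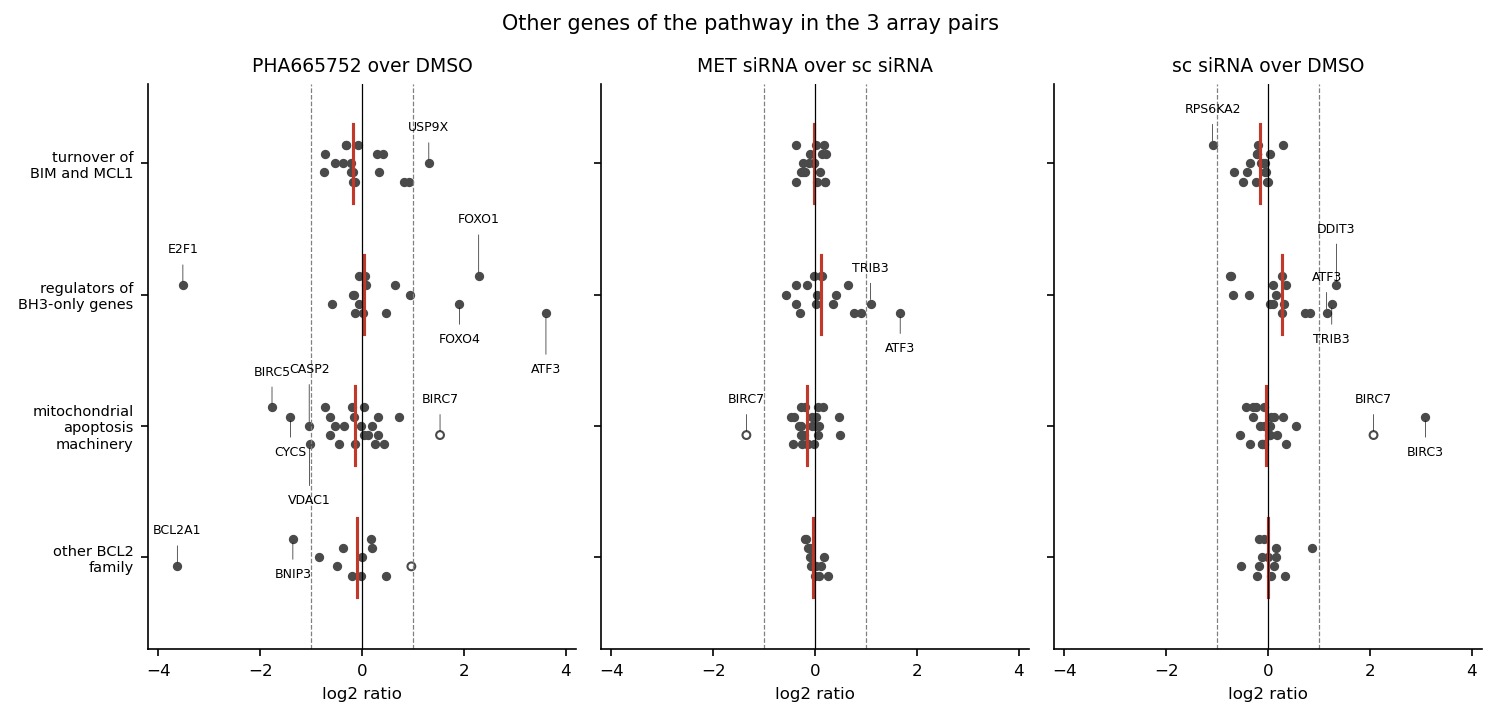
Log2 ratio of each gene of the 4 further lists in the 3 array pairs, with a red bar at each list's median, dashed lines at 2-fold, open symbols for bounds and names for genes past 2-fold. The list medians lie between -0.18 and 0.27, and single genes such as ATF3 (3.61) and BCL2A1 (-3.63) with PHA665752 lie far from them. The PHA665752 signal of BCL2A1 was close to background.

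For each member past 2-fold with PHA665752, the named genes with the most similar set of 3 log2 ratios were taken among 13073 genes by Euclidean distance. BMF was nearest to UNC5B-AS1 (distance 0.19), ARL14EPL (0.29) and SLC12A8 (0.41), and BBC3 to PKD1L2 (0.14), YPEL2 (0.17) and TEX29 (0.17). BCL2 was nearest to FEN1 (0.09), NEIL3 (0.16) and SOCS1 (0.22), and BCL2L1 to EHD1 (0.05), IMP4 (0.10) and KRT15 (0.10). BMF therefore had the sparsest neighbourhood of the 4, its farthest named neighbour being at 0.41 against 0.10 to 0.22 for the others. These distances come from the same ratios that place BMF at the edge of all genes, and are not a separate result. The likeness rests on 4 arrays.

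Scaling shifted the siRNA ratios of all genes together. When the arrays were scaled to the median signal of whichever probes were well above background on each, every siRNA ratio fell by 0.30, which left BMF past 2-fold and put BBC3 at 0.57 and BCL2L1 at -0.83. With the 50th percentile every inhibitor ratio fell by 0.25. Differences between members within a pair do not change with such a shift, and the difference between BH3-only and pro-survival medians stayed at 1.5 and 0.75 under both.

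**Figure D5:**
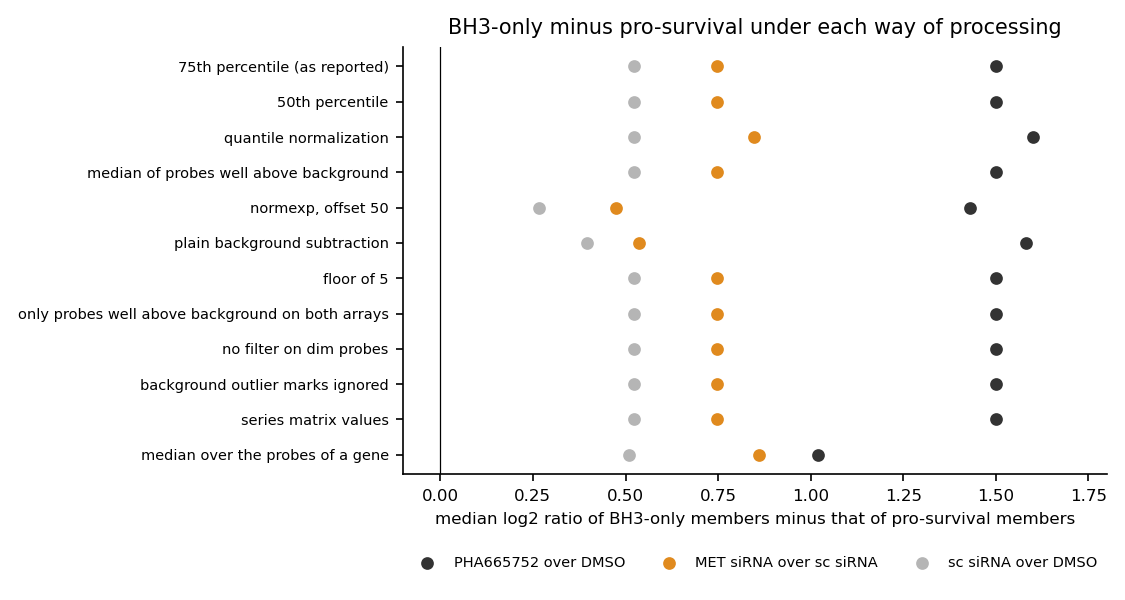
BH3-only minus pro-survival difference of median log2 ratios (horizontal axis, log2) in the 3 array pairs (colours) under the processing reported and 11 alternatives (vertical axis). The values run from 1.02 to 1.60 with PHA665752, from 0.47 to 0.86 with MET siRNA and from 0.27 to 0.52 between the controls.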

How the data were processed

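The authors deposited the scanner output of Agilent Feature Extraction (11.5.1.1 in the file headers), whose processed signal is a linear intensity per spot after background subtraction, without normalization between arrays, and a series matrix of the same values. The array design was annotated on hg19, and probes were named through RefSeq accessions of GRCh38.p14 for names only.

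Control spots and spots marked as outliers were left out (43118 non-control spots per array). Log2 signals were averaged over the spots of a probe, less the array's own 75th percentile. Ratios were computed for PHA665752 over DMSO, MET siRNA over sc siRNA and sc siRNA over DMSO. A probe well above background on 1 array of a pair gave a bound, on neither no ratio. The brightest probe stood for its gene. A call needed more than 2-fold. With 1 array per condition no test was run, and precision is limited by the number of arrays.

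The members, the 4 further lists and the markers were chosen with earlier results of these data known. Named genes were all members with each probe, MET, list genes past 2-fold in an inhibitor or siRNA pair, up to 3 more with a clear role, and the 3 nearest patterns. Genes named for the control pair, FOXO3, BIK, HRK and some markers were chosen after their values were seen.

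Alternatives were another percentile, quantile normalization, scaling to probes well above background, normexp (limma 3.58.1, R 4.3.3) with offset 50, plain subtraction, a floor of 5, stricter and no filters on dim probes, background marks ignored, the series matrix and a median over each gene's probes. Other steps used Python 3.11.15 with pandas 2.3.3 and numpy 2.4.6 and were tested on simulated data.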

Additional observations from a re-analysis of the deposited data

How the results depend on the processing

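No paired analysis was possible because each condition had 1 array and the labels give no replicate numbers. No array could be left out, for the same reason. Under 11 alternatives the difference between BH3-only and pro-survival medians kept its sign in all 3 pairs. It changed only with quantile normalization, normexp, plain subtraction and the median over each gene's probes, so the others say little about it. A common scaling cancels in a difference, and every probe standing for a member was well above background on all arrays. A shift counted as a move when it exceeded 0.296, the robust SD of the ratios between the controls. By that measure the difference moved in 1 case, to 1.02 with PHA665752 with a median over each gene's probes. The number of members past 2-fold with PHA665752 was 4, or 3 with normexp, where BCL2L1 was at -0.92. It was 1 with MET siRNA and 0 between the controls throughout. Of 330 single-member ratios under the alternatives 17 moved, of which 10 were the siRNA ratios of all members under scaling to probes well above background, a common shift of -0.30. The floor and the filters on dim probes changed no member ratio. No ratio past 2-fold in the main values changed sign. BMF ranged from 2.36 to 2.99 with PHA665752 and from 1.25 to 1.79 with MET siRNA, BBC3 from 1.5 to 1.82 and from 0.57 to 0.89, BCL2 from -2.94 to -1.04 with PHA665752, and BCL2L1 from -1.29 to -0.92 and from -0.83 to -0.46. The low ends for BMF and the high end for BCL2 came from normexp with its offset, which draws dim probes together by construction. Between the controls BCL2L11 changed sign with normexp (0.04) and with plain subtraction (0.07). Signals near background limit BCL2 most, since its second probe was a bound with PHA665752.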
